A study of Solanum lycopersicum with 16 samples.

Results

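SlIDD4 (Solyc04g008500, named IDD4 in the Ct values) is a tomato INDETERMINATE DOMAIN (IDD) gene that the phylogeny of the study places with the Arabidopsis genes AtIDD5, called RAVEN, and AtIDD6, called BLUEJAY. It was chosen by name, as 1 of the 22 target genes of a quantitative PCR series, and is described here over all 16 groups of plant material. Tomato plants (cv. M82, 3 weeks old, wild type) were grown in potting medium in a greenhouse and put under salt (medium saturated with 200 mM NaCl), low pH (saturated with water of pH 4.2) or flood (roots submerged). Controls had their medium saturated with water of the pH used for salt and flood, which was higher than 4.2. Roots and shoots were sampled at 2 h and at 24 h, which gave 12 stressed and 4 control groups. All plants were of 1 genotype, without a transgene, and RNA of whole roots or whole shoots was measured. The annotation of RefSeq (assembly SLM_r2.1) holds the gene as LOC101254782, a protein-coding gene of chromosome 4 with 4 annotated transcripts, and the Ct values do not tell these transcripts apart.

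IDD proteins are plant transcription factors with C2H2 and C2HC zinc fingers. In Arabidopsis, the subfamily known as the BIRD genes acts with the GRAS proteins SHORT-ROOT and SCARECROW in the ground tissue of the root, where asymmetric divisions separate endodermis from cortex. RAVEN binds DELLA proteins, the repressors of gibberellin signalling, and promotes expression of a starch synthase gene, and BLUEJAY takes part in root tissue patterning. These roles come from Arabidopsis and are background to the measurements in tomato.

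The measured value was the Ct, the PCR cycle at which the fluorescence of a well passes a threshold, so that a lower Ct stands for more template and 1 cycle for a doubling of it. SlIDD4 had a Ct in 58 of 64 wells, 3 or 4 for each group, and ubiquitin, the reference gene, in 58 wells of the same plate. In all, 1425 of 1536 wells had a value. The level of SlIDD4 is given as the mean Ct of ubiquitin minus the Ct of SlIDD4, a log2 scale on which a higher value is more transcript per ubiquitin transcript. The time of a well was read from its row on the plate, while the labels give one time to each plate, a choice made with the values in view. Ubiquitin had only 2 wells in control shoots at 24 h and in flooded roots at 24 h. The wells of a group were taken as its replicates because nothing ties a well to a plant. The p-values therefore measure the spread between wells, and are too small if wells shared a plant. A lower level in a whole organ can come from fewer cells with the transcript or from less of it per cell, which these data cannot tell apart. None of the 22 targets is a defining marker of roots or shoots, so the labelled tissue could not be checked against markers.

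In the wells themselves SlIDD4 came up earlier under most stresses. Flooded shoots at 24 h had Ct values of 20.55, 20.39, 20.64 and 20.56, against 23.48, 23.84 and 22.54 in control shoots. Low pH roots at 24 h had the lowest Ct values of all groups, 18.90, 19.13, 19.26 and 19.26, against 23.00, 22.47, 23.14 and 24.07 in control roots. The wells of these stressed groups did not overlap with those of their controls, and this held for 8 of the 12 stress comparisons, 5 of 6 in roots and 3 of 6 in shoots. Over all targets the wells were apart in 72.7% of values in roots and 69.5% in shoots. The exceptions were salt shoots at both times, low pH roots at 2 h and low pH shoots at 24 h. Salt shoots at 2 h had the widest spread of any group, with Ct values of 22.54, 26.13, 24.21 and 22.29, against 23.39, 24.77, 23.52 and 23.01 in control shoots. The widest difference among the wells of that group was therefore larger than any difference from its control.

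**Figure D1:**
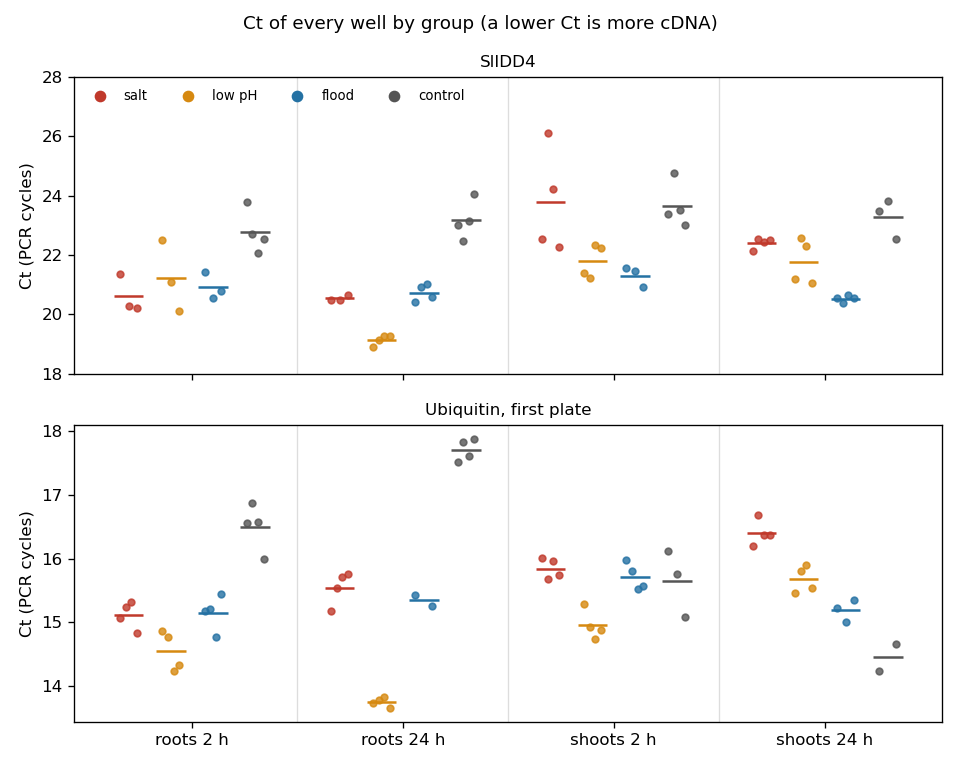
Ct in PCR cycles of every well of SlIDD4 (top) and of ubiquitin on the same plate (bottom), by tissue and time on the x axis and by treatment in colour, with a line at each group mean. In roots both genes came up earlier under stress, with ubiquitin at 13.74 cycles in low pH roots against 17.71 cycles in control roots at 24 h, while in shoots at 24 h SlIDD4 came up earlier under stress and ubiquitin later.

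Ubiquitin, against which all levels are set, differed between stressed and control groups as well. In roots its mean Ct changed by -1.39, -1.95 and -1.35 cycles under salt, low pH and flood at 2 h, and by -2.17, -3.97 and -2.37 cycles at 24 h. Its stressed wells lay below those of the control in all 6 root comparisons (exact two-sided permutation p = 0.0286 in 5 of them and 0.0667 in flooded roots at 24 h, each the smallest that the number of wells allows). In shoots at 24 h it changed the other way, by 1.96 cycles under salt, 1.23 under low pH and 0.74 under flood, against control wells of 14.23 and 14.67 cycles. The level of SlIDD4 is thus relative to ubiquitin of the first plate, which was itself earlier in stressed roots and later in stressed shoots at 24 h. The second plate of the same samples carried ubiquitin too. There it changed in roots by -1.54, 1.41 and -0.89 cycles under salt, low pH and flood at 2 h. At 24 h it changed by -0.78, -0.09 and -0.81 in roots and by 0.28, 0.78 and 0.08 in shoots. Each treatment and tissue had its own plates, so a difference between plates cannot be told apart from one between treatments. A well also measures transcript and the amount of cDNA together, and in the Ct of 1 gene the shares of these cannot be told apart.

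Set against ubiquitin, SlIDD4 was lowest in control shoots. The lowest levels were -8.84 (standard error, SE, 0.44) in control shoots at 24 h and -8.02 (SE 0.49) in control shoots at 2 h, or 0.219% and 0.385% of ubiquitin if both products double in every cycle. The highest were -4.99 (SE 0.14) in salt roots at 24 h, -5.34 (SE 0.11) in flooded shoots at 24 h and -5.39 (SE 0.17) in flooded roots at 24 h, the first of these 3.15% of ubiquitin. The highest and the lowest level differed by 3.85 on the log2 scale (95% interval 2.63 to 5.06, from 1 fit over all groups). Salt shoots at 2 h, at -7.95 (SE 0.89), lay beside the controls, and low pH shoots at 2 h followed at -6.85 (SE 0.30). All other groups, the 8 root groups among them, lay between -6.69 and -4.99. In the fit over all groups, 1 pair of neighbours in order of level had a 95% interval of the difference that left out 0. This was low pH shoots at 2 h above salt shoots at 2 h, by 1.10 (95% interval 0.05 to 2.15). The fit pools the spread of all groups and gave this difference an SE of 0.53, below the 0.89 of salt shoots at 2 h. The pairs came from sorting these same values, without adjustment, so this gap is not taken as established. The other neighbours did not differ beyond their spread, which says nothing of groups farther apart in the order.

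**Figure D2:**
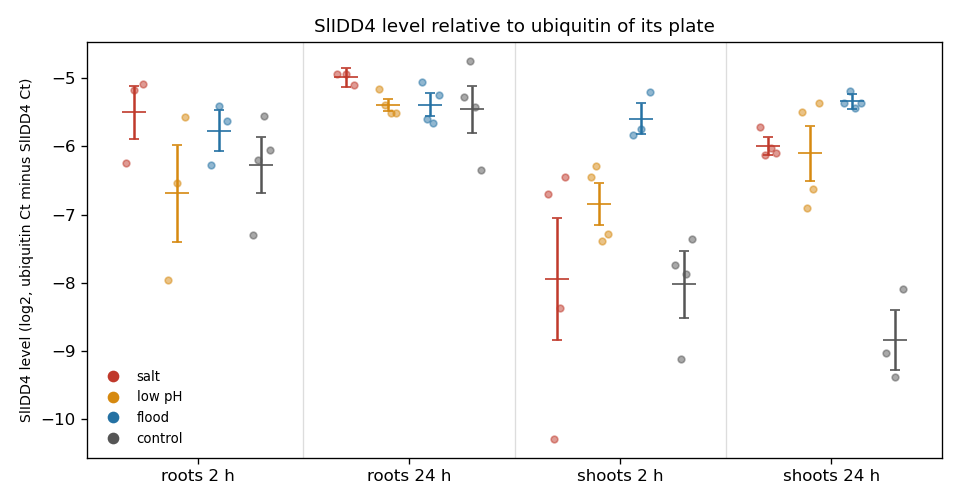
Level of SlIDD4 on a log2 scale (ubiquitin Ct of the first plate minus SlIDD4 Ct) in each group, by tissue and time on the x axis and treatment in colour; points are wells and bars the group mean with its SE, that of ubiquitin included. The 8 root groups lie between -6.69 and -4.99, and control shoots lie lowest, at -8.02 at 2 h and -8.84 at 24 h.

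Without stress, and relative to ubiquitin of its plate, SlIDD4 was higher in roots than in shoots at both times. The difference was 1.75 on the log2 scale at 2 h (SE 0.60, adjusted p = 0.0202), a 3.35-fold higher level in roots, in a comparison that called 50.0% of the 22 targets in either direction. At 24 h it was 3.38 (SE 0.47, adjusted p = 3.55e-05), or 10.4-fold, where 72.7% of targets were called. These p-values, like all adjusted p-values given here, come from the limma fit with Benjamini-Hochberg adjustment over the targets of a comparison. The Ct of SlIDD4 itself differed little between the control tissues at 24 h, with means of 23.17 ± 0.66 in roots and 23.28 ± 0.67 in shoots (SD, n = 4 and 3 wells), and ubiquitin carried the difference, with 17.71 ± 0.18 cycles in roots and 14.45 ± 0.31 in shoots (SD, n = 4 and 2 wells). Between 24 h and 2 h the control level changed by 0.82 in roots (SE 0.50, adjusted p = 0.197) and by -0.82 in shoots (SE 0.64, adjusted p = 0.301). Neither change passed the test, in comparisons that called 31.8% of targets in roots and 18.2% in shoots. Without the wells of replicate row 2 or row 3, the difference between tissues at 2 h lost its call, at 1.47 and 1.58. With no reference gene the difference was 0.89 at 2 h and 0.12 at 24 h, and neither was called. With ubiquitin of the second plate it was 1.08 and 0.095, again without a call. Against the other targets the value at 2 h, 1.53, kept its call and that at 24 h, 0.96, lost it. With ubiquitin over both plates, 1.42 and 1.70 were both called.

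Relative to ubiquitin of its plate, flood raised SlIDD4 in shoots at both times. At 2 h the Ct was 21.55, 21.46 and 20.92 in flooded shoots, against 23.39, 24.77, 23.52 and 23.01 in control shoots, while ubiquitin differed by 0.07 cycles. The log2 fold change was 2.43 (SE 0.51, adjusted p = 0.00107), a 5.38-fold rise, and the comparison called 63.6% of the targets. The two-sided exact permutation test of the Ct alone gave p = 0.0286, the smallest that 3 wells against 4 allow. At 24 h the rise was 11.3-fold, a log2 fold change of 3.50 (SE 0.36, adjusted p = 3.92e-06), and the lowest level of flooded shoots, -5.44, lay above the highest of the controls, -8.09. At that time 95.5% of targets were called and the median target had a log2 fold change of 2.43, so that a rise in flooded shoots was shared by nearly all genes measured and the call by itself sets SlIDD4 apart from few of them. Against the other targets of the plate the value at 2 h was 1.05 and lost its call (adjusted p = 0.0833), and that at 24 h was 0.95 (adjusted p = 0.0201). The error of the mean of the other targets was not added, here and elsewhere, so p-values with this reference can be too small. With the control plates of the tissues exchanged the values were 0.68 and 0.11, and neither passed.

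In flooded roots SlIDD4 followed ubiquitin of its plate. At 2 h its Ct was 21.42, 20.56 and 20.78, against 23.80, 22.71, 22.06 and 22.55 in control roots, and the log2 fold change was 0.51 (SE 0.50, adjusted p = 0.564). At 24 h the Ct was 20.40, 20.94, 21.01 and 20.59 in flooded roots and 23.00, 22.47, 23.14 and 24.07 in control roots, and the log2 fold change was 0.06 (95% interval -0.74 to 0.86, adjusted p = 0.862). The level of SlIDD4 did not pass at either time, although 40.9% of targets were called in each of these comparisons. At 24 h the difference in Ct of SlIDD4 (-2.43 cycles) was about that of ubiquitin (-2.37 cycles). Ubiquitin of the second plate changed by -0.81 cycles at that time, and against it SlIDD4 was called higher (1.63, limma adjusted p = 0.00215).

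Relative to ubiquitin of its plate, salt raised SlIDD4 in shoots at 24 h, and at 2 h the wells were too spread to tell. At 2 h its log2 fold change was 0.07 (SE 0.89, 95% interval -1.92 to 2.06, adjusted p = 0.936), where 31.8% of targets were called. The levels of salt shoots then, -10.28 to -6.44, span those of the controls, -9.12 to -7.35. At 24 h the wells of salt shoots agreed closely, at 22.13, 22.54, 22.44 and 22.51 cycles, and the log2 fold change was 2.84 (SE 0.36, adjusted p = 9.21e-06), a 7.17-fold rise. Of this, 0.88 came from the earlier Ct of SlIDD4 and 1.96 from the later Ct of ubiquitin. The exact permutation test of the Ct alone gave p = 0.0571, where 0.0286 was the smallest possible. After exchange of the control plates of the tissues the log2 fold change was -0.54 (adjusted p = 0.166). In the main comparison of salt shoots at 24 h, 90.9% of targets were called, with a median log2 fold change of 1.53. In salt roots SlIDD4 had a log2 fold change of 0.77 at 2 h (SE 0.51, adjusted p = 0.252; 36.4% of targets called) and 0.46 at 24 h (SE 0.38, adjusted p = 0.289; 59.1% called). In salt roots at 24 h it was called higher with no reference gene (2.63), with ubiquitin of the second plate (1.86) and against the other targets (1.28). It was not called with ubiquitin over both plates (1.06). The Ct of SlIDD4 in salt roots, 21.36, 20.29 and 20.20 at 2 h and 20.48, 20.49 and 20.64 at 24 h, lay below every control well of its time.

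Relative to ubiquitin of its plate, low pH raised SlIDD4 in shoots at 24 h and its change in roots missed the threshold, and both depended on the reference. In shoots the Ct was 21.40, 21.24, 22.33 and 22.24 at 2 h, with a log2 fold change of 1.17 that missed the threshold (SE 0.53, adjusted p = 0.0887; 40.0% of targets called). At 24 h it was 21.18, 22.59, 22.31 and 21.05, which fell into a higher and a lower pair, and the log2 fold change was 2.73 (SE 0.50, adjusted p = 2.33e-04), a 6.65-fold rise, with 95.0% of targets called and a median of 2.18. With the mean of the other targets of the plate as the reference, this value turned to -0.43 (SE 0.46, adjusted p = 0.473). After exchange of the control plates of the tissues it was -0.65 (adjusted p = 0.247). The exact permutation test of the Ct alone gave p = 0.0857 at 24 h, where 0.0286 was the smallest possible. In roots SlIDD4 had log2 fold changes of -0.42 at 2 h (SE 0.68, adjusted p = 0.555) and 0.06 at 24 h (95% interval -0.65 to 0.77, adjusted p = 0.945), where 63.6% of targets were called at each time. The wells of low pH roots at 2 h, at 22.51, 21.09 and 20.12 cycles, were the most spread of the root groups. The 3 stresses of a tissue and time share their control wells, so their fold changes are not independent of each other, and those in shoots at 24 h all rest on 2 ubiquitin wells and 3 SlIDD4 wells of the controls.

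Relative to ubiquitin of its plate, the response of SlIDD4 differed between the tissues in a test of the difference itself, and this depended on the reference. At 24 h it was lower in roots than in shoots by 2.38 on the log2 scale under salt (SE 0.55, adjusted p = 6.05e-04; 72.7% of targets called), by 2.68 under low pH (SE 0.60, adjusted p = 3.40e-04; 80.0% called) and by 3.43 under flood (SE 0.53, adjusted p = 6.87e-06; 81.8% called). At 2 h the difference was -1.92 under flood (SE 0.74, adjusted p = 0.0248; 72.7% called), -1.59 under low pH (SE 0.87, adjusted p = 0.107; 40.0% called) and 0.70 under salt (SE 1.09, adjusted p = 0.613; 40.9% called). With no reference gene the differences at 24 h turned and passed the other way under salt (1.75, adjusted p = 0.00570) and low pH (2.52, adjusted p = 0.00106), and that under flood was -0.32 and lost its call. With ubiquitin over both plates the calls under salt (-0.79) and low pH (-0.76) were lost, and against the other targets low pH turned to 2.08 (adjusted p = 0.00497). The difference under flood at 2 h lost its call with no reference gene (-0.50) and without the wells of row 2 (-1.50) or row 3 (-1.95). Across all targets the median difference at 24 h was -1.84, -2.97 and -2.18 under salt, low pH and flood, so that SlIDD4 shared its direction with most of the genes measured.

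Between the times, the response of SlIDD4 to salt in shoots was larger at 24 h than at 2 h by 2.77 on the log2 scale (SE 1.05, adjusted p = 0.0401; 40.9% of targets called). This call was lost without the wells of row 1 (2.81), row 2 (1.96) or row 3 (2.96), and without moderation of the spread. It was also lost with no reference gene (1.00), ubiquitin over both plates (2.09), ubiquitin of the second plate (1.68) and the other targets (1.15). Under low pH the difference in shoots was 1.56 (SE 0.75, adjusted p = 0.0797; 50.0% called) and under flood 1.07 (SE 0.67, adjusted p = 0.194; 45.5% called). In roots it was -0.31 under salt, 0.47 under low pH and -0.44 under flood, with adjusted p from 0.593 to 0.717, in comparisons that called 18.2%, 31.8% and 22.7% of targets.

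How much SlIDD4 rose, and in which tissue, depended on the reference. The second plate of each sample carried ubiquitin too, and its mean Ct differed from that of the first plate by up to 2.94 cycles. First minus second plate, the difference was -2.94 in low pH roots at 2 h, -2.19 in low pH roots at 24 h, -2.25 in low pH shoots at 2 h, -1.60 in control shoots at 24 h and 1.69 in control roots at 24 h. With ubiquitin taken over both plates, SlIDD4 was called higher in 5 of 6 shoot comparisons and 0 of 6 root comparisons, with log2 fold changes in shoots from -0.24 to 3.00. Over all targets this reference called 56.2% of values higher in shoots and 19.7% in roots. With no reference gene it was called higher in 5 of 6 root comparisons and 5 of 6 shoot comparisons, up to 4.03 in low pH roots at 24 h, where over all targets 71.2% of values in roots and 54.7% in shoots were called higher. With the mean of the other targets of the plate as the reference, it was called higher in 2 root comparisons (salt and low pH at 24 h, 1.28 and 1.65) and 2 shoot comparisons (salt and flood at 24 h, 1.49 and 0.95), beside 25.8% of all values in roots and 25.0% in shoots. With ubiquitin of the second plate alone it was called higher in 4 of 6 root comparisons and 5 of 6 shoot comparisons, where 52.3% and 64.8% of all values were. Flood and salt at 24 h in shoots were called higher under each of 5 references, and salt shoots at 2 h under none.

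**Figure D3:**
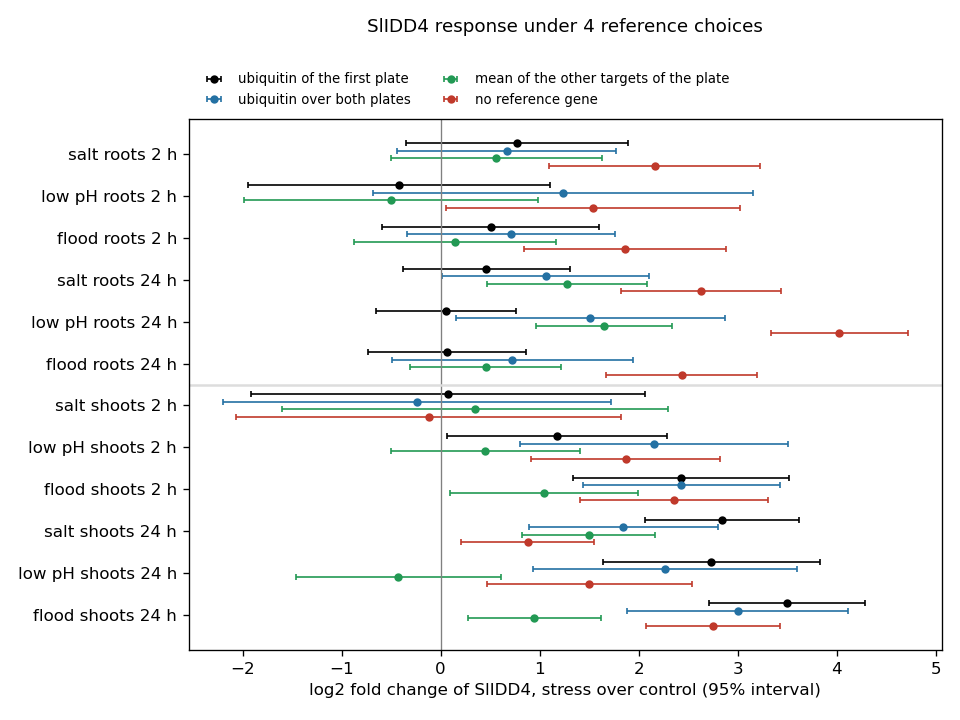
Log2 fold change of SlIDD4, stress over control within a tissue and time, with its 95% interval, for 12 comparisons and 4 choices of reference (colours). Intervals against the mean of the other targets leave out the error of that mean. In shoots at 24 h under flood all 4 choices lie above 0, from 0.95 to 3.50, and in low pH roots at 24 h they spread from 0.06 with ubiquitin of the first plate to 4.03 with no reference gene.

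The tissue contrast also rests on which control is which. Label fields other than the titles and source names give other tissues or treatments for some samples, and the files leave unsettled if root and shoot controls were swapped. With these 2 plates exchanged, log2 fold changes in roots became 2.52 and 3.85 under salt, 1.33 and 3.44 under low pH and 2.25 and 3.45 under flood (2 h and 24 h), of which all but low pH at 2 h passed the test, and in shoots they lay between -1.67 and 0.68, with none past it. Over all targets 51.5% of root values and 38.3% of shoot values were then called higher.

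Among the other 21 targets, SlIDD1 had levels most like those of SlIDD4 over the 16 groups (Pearson r = 0.86, Spearman rho = 0.68), followed by SlIDD11 (r = 0.62) and SlIDD18 (r = 0.59). SlIDD14, a tomato gene with a part in stem and leaf form, had the lowest correlation (r = -0.31, or -0.02 over the root groups and -0.82 over the shoot groups). That place rested on the reference, since with the Ct alone its r was 0.10 and SlIDD16 was lowest (0.08), and against the other targets its r was -0.15 and SlSTOP1 was lowest (-0.64). The likeness of SlIDD1 came from the shoots, with r = 0.96 over the 8 shoot groups and 0.01 over the 8 root groups. All targets but SlIDD14 had a positive r over the shoot groups, the lowest 0.36 (SlIDD16), with SlIDD5 at 0.91. A high r there is thus not particular to SlIDD1. SlIDD1, SlIDD11 and SlIDD4 share the plate and its ubiquitin wells, which alone ties their levels together, and the correlations are descriptions with no test. With the Ct alone SlIDD1 again had the highest r, at 0.87, and with levels set against the other targets of the plate as well, at 0.81. SlIDD1 had log2 fold changes of 2.74, 3.30 and 3.98 in shoots at 24 h under salt, low pH and flood, beside 2.84, 2.73 and 3.50 for SlIDD4. In roots at 24 h the genes differed in value, with -1.31, -1.77 and -0.45 for SlIDD1 and 0.46, 0.06 and 0.06 for SlIDD4.

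**Figure D4:**
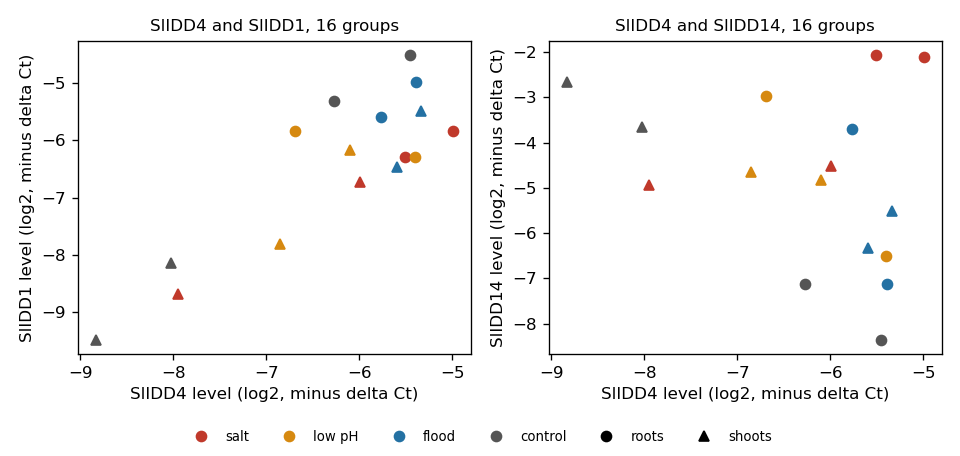
Level of SlIDD1 (left) and SlIDD14 (right) against that of SlIDD4 on log2 scales (minus delta Ct against ubiquitin of each gene's own plate) in the 16 groups, with treatments in colour, circles for roots and triangles for shoots. SlIDD1 follows SlIDD4 over the shoot groups (r = 0.96) and not over the root groups (r = 0.01), and SlIDD14 runs the other way over the shoot groups (r = -0.82) and not over the root groups (r = -0.02).

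SlIDD2, which the study named as a co-expression partner of SlIDD4, had r = 0.47 over the 16 groups, rank 7 of 21. Its r was 0.82 over the shoot groups and -0.16 over the root groups. Over the shoot groups SlIDD1 (0.96), SlIDD5 (0.91), SlIDD12 (0.81) and SlIDD17 (0.80) were higher or close, so 0.82 does not set SlIDD2 apart. In shoots at 24 h SlIDD2 rose with log2 fold changes of 2.34 under salt, 1.50 under low pH and 2.61 under flood. In roots it was called lower at both times under each stress relative to ubiquitin, with log2 fold changes between -4.71 and -1.50, where those of SlIDD4 lay between -0.42 and 0.77. With no reference gene SlIDD2 in roots lay between -2.34 and 1.60, and the calls were 3 lower (salt at 24 h and flood at both times) and 1 higher (low pH at 24 h).

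Other tomato genes that the phylogeny puts with Arabidopsis BIRD genes are SlIDD6, SlIDD7, SlIDD8, SlIDD13 and SlIDD14. Relative to ubiquitin of each plate, this list had calls in roots at 2 h, where SlIDD4 had none. Of these 5 genes, 3 rose under salt, 4 under low pH and 3 under flood, and 0 fell. These comparisons called 36.4%, 63.6% and 40.9% of all targets in either direction, and 6, 10 and 7 of the 22 targets higher. The list medians were 2.01, 2.63 and 2.44, beside medians of -0.15, 1.18 and 0.09 over all targets. SlIDD13 and SlIDD14 lie on the second plate and were set against its ubiquitin, which changed by 1.41 cycles in low pH roots at 2 h, against -1.95 cycles on the first plate, so sizes of change are not comparable across the plates there. Relative to ubiquitin of each plate, SlIDD14 had the highest value each time, at 5.05, 4.16 and 3.42 on the log2 scale (adjusted p = 4.71e-06, 0.00166 and 5.22e-04), where SlIDD4 had 0.77, -0.42 and 0.51. With no reference gene SlIDD6 had the highest value under low pH, 4.58 beside 2.75 for SlIDD14. Under low pH this setting took the call from SlIDD13 (1.76, adjusted p = 0.111) and gave one to SlIDD7 (1.22, adjusted p = 0.0148). SlIDD4 was called higher as well with no reference gene under salt (2.16) and flood (1.86), and not under low pH (1.54). In roots at 24 h the counts were 2 higher and 1 lower under salt (SlIDD14 largest, 6.24), 1 higher and 3 lower under low pH (SlIDD7 largest, -3.07) and 1 higher and 0 lower under flood (SlIDD13, 1.67), where 59.1%, 63.6% and 40.9% of all targets were called. The list medians were 0.56, -0.72 and 0.23, beside 0.50, 0.03 and 0.27 over all targets. In shoots at 24 h they were 4 higher and 1 lower under each stress, in comparisons that called 90.9%, 95.0% and 95.5% of all targets. The list medians of 1.42, 3.01 and 1.84 stand beside 1.53, 2.18 and 2.43 over all targets, so the counts are near the background. The largest changes there were those of SlIDD7 under salt (2.54) and of SlIDD6 under low pH (5.78) and flood (3.01). In shoots at 2 h the list had 0 higher and 1 lower under salt (SlIDD14, -1.30), 1 higher and 0 lower under low pH (SlIDD8, 1.96) and 2 higher and 1 lower under flood (SlIDD14 largest, -2.69), where 31.8%, 40.0% and 63.6% of all targets were called, so these shares do not exceed the background.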

How the data were processed

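The cDNA of roots and shoots was assayed by qRT-PCR with SYBR Green for 22 targets and the reference gene ubiquitin. The Ct values that the authors deposited, in cycles per well before any normalization, were used. The authors' sheets of relative quantities and of fold changes were not used. The methods state 4 biological samples and 2 technical replicates. Titles and source names set the stress and tissue of a sample. By the labels, plates differ in time (2 h, then 24 h). Instead, the upper rows of wells (A to D) were taken as 2 h and the lower rows (E to H) as 24 h, and genes by plate column. This layout was chosen after the values were seen, because it gives back the supplementary fold changes, so their closeness is not independent evidence. There were 1425 values in 1536 wells, from 13.65 to 32.65 cycles, and 1382 were used; 48 wells with irregular names, none of SlIDD4 or of the first plate's ubiquitin, were left out.

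The log2 fold change is minus delta delta Ct against the group mean of ubiquitin of the same plate. It was fitted in R 4.3.3 with the moderated spread of limma 3.58.1 for each comparison over its own groups. To its error that of ubiquitin was added, with Satterthwaite degrees of freedom, and two-sided p was adjusted by Benjamini-Hochberg within each comparison (threshold 0.05). Where the mean of the other targets was the reference, no error was added for that mean. Intervals with this reference can be too narrow and p-values too small. Interactions gave the differences between tissues and times. The script was tested on simulated data. Python 3.11.15, numpy 2.4.6, pandas 2.3.3 and matplotlib 3.10.9 made tables and figures. The genes named are SlIDD4, ubiquitin, SlIDD2 and the genes put with Arabidopsis BIRD genes. Also named are the 3 targets with the highest and the 1 with the lowest correlation with SlIDD4, and some targets beside them for comparison. Members and lists were chosen with earlier results of these data known. Alternatives were other references, a single fit of the 16 groups, blocks by row of wells, each row left out, an exact permutation test, other adjustment, no moderation, irregular wells kept, and times as labelled. Ubiquitin of the second plate alone and exchanged control plates were added after seeing the data. The precision is limited by 3 or 4 wells per group.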

Additional observations from a re-analysis of the deposited data

Results flagged for a closer look

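The response of SlIDD4 to stress, set against ubiquitin of its plate, differed between roots and shoots in 4 tests of the difference and between times in 1. Roots minus shoots, the log2 fold changes differed by -2.38 under salt, -2.68 under low pH and -3.43 under flood at 24 h and by -1.92 under flood at 2 h. At 24 h minus 2 h, the response to salt in shoots differed by 2.77. The tissue differences under salt and low pH at 24 h changed sign and passed the other way with no reference gene (1.75 and 2.52, limma adjusted p = 0.00570 and 0.00106). They also changed sign with ubiquitin of the second plate (0.70 and 1.65, adjusted p = 0.243 and 0.0338), and low pH turned to 2.08 against the other targets (adjusted p = 0.00497). With ubiquitin over both plates both calls were lost (-0.79 and -0.76). The flood differences lost their calls with no reference gene, at -0.32 at 24 h and -0.50 at 2 h. The part of the reference gene and of the control plates in these differences was not tested beyond the alternatives given. Of 22 groups of 4 wells, over SlIDD4 and ubiquitin, 0 had a well set apart from the others by Dixon's criterion, which flags about 1 in 20 groups by chance.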

How the results depend on the processing

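The rise of SlIDD4 in shoots under flood and salt at 24 h kept its direction and its call under every other reference, in 1 fit over all groups, with adjustment over all comparisons of a kind and without any single row of wells. With the control plates exchanged the call was lost under flood, with the direction kept, and the sign turned under salt. The exact permutation test kept both directions, and its smallest possible p (0.1 under flood and 0.0667 under salt) could not pass. Of the 28 results, 28 kept direction and call with 1 fit over all 16 groups, with adjustment over all comparisons of a kind and with irregular wells kept. Where a setting moved a call, the cause was not tested.

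In parentheses stands the log2 value under each setting, of the fold change under stress or of the difference named. With no reference gene, the sign turned for control roots at 24 h minus 2 h (-0.39), control shoots at 24 h minus 2 h (0.39), low pH roots at 2 h (1.54), salt shoots at 2 h (-0.12), flood roots 24 h minus 2 h (0.57), low pH roots minus shoots at 24 h (2.52), low pH shoots 24 h minus 2 h (-0.37), salt roots 24 h minus 2 h (0.47) and salt roots minus shoots at 24 h (1.75). Without any reference, calls were lost for control roots minus control shoots at 2 h (0.89), control roots minus control shoots at 24 h (0.12), flood roots minus shoots at 2 h (-0.50), flood roots minus shoots at 24 h (-0.32) and salt shoots 24 h minus 2 h (1.00). Without any reference, calls were gained for flood roots at 2 h (1.86), flood roots at 24 h (2.43), low pH roots at 24 h (4.03), low pH shoots at 2 h (1.87), salt roots at 2 h (2.16), salt roots at 24 h (2.63) and low pH roots 24 h minus 2 h (2.49). With the mean of the other targets of the plate as the reference, the sign turned for control roots at 24 h minus 2 h (-0.45), control shoots at 24 h minus 2 h (0.12), low pH shoots at 24 h (-0.43), flood roots 24 h minus 2 h (0.31), flood shoots 24 h minus 2 h (-0.10), low pH roots minus shoots at 24 h (2.08), low pH shoots 24 h minus 2 h (-0.88) and salt roots 24 h minus 2 h (0.71). Against the other targets, calls were lost for control roots minus control shoots at 24 h (0.96), flood shoots at 2 h (1.05), flood roots minus shoots at 2 h (-0.90), flood roots minus shoots at 24 h (-0.49), salt roots minus shoots at 24 h (-0.22) and salt shoots 24 h minus 2 h (1.15). Against the other targets, calls were gained for low pH roots at 24 h (1.65) and salt roots at 24 h (1.28). With ubiquitin of the second plate alone, the sign turned for control roots at 24 h minus 2 h (-0.44), control shoots at 24 h minus 2 h (0.54), low pH roots at 2 h (2.94), salt shoots at 2 h (-0.52), flood roots 24 h minus 2 h (0.65), low pH roots minus shoots at 24 h (1.65), low pH shoots 24 h minus 2 h (-0.89), salt roots 24 h minus 2 h (1.23) and salt roots minus shoots at 24 h (0.70). With second-plate ubiquitin, calls were lost for control roots minus control shoots at 2 h (1.08), control roots minus control shoots at 24 h (0.095), flood roots minus shoots at 2 h (-1.50) and salt shoots 24 h minus 2 h (1.68). With second-plate ubiquitin, calls were gained for flood roots at 24 h (1.63), low pH roots at 24 h (3.93), low pH shoots at 2 h (3.17) and salt roots at 24 h (1.86). With ubiquitin over both plates, the sign turned for control shoots at 24 h minus 2 h (0.0028), low pH roots at 2 h (1.23), salt shoots at 2 h (-0.24), flood roots 24 h minus 2 h (0.014) and salt roots 24 h minus 2 h (0.39). With ubiquitin of both plates, calls were lost for low pH roots minus shoots at 24 h (-0.76), salt roots minus shoots at 24 h (-0.79) and salt shoots 24 h minus 2 h (2.09). With ubiquitin of both plates, calls were gained for low pH shoots at 2 h (2.15). With the control plates exchanged, the sign turned for low pH roots at 2 h (1.33), low pH shoots at 2 h (-0.57), low pH shoots at 24 h (-0.65), salt shoots at 2 h (-1.67) and salt shoots at 24 h (-0.54). After this exchange of controls, calls were lost for flood shoots at 2 h (0.68) and flood shoots at 24 h (0.11). After this exchange of controls, calls were gained for flood roots at 2 h (2.25), flood roots at 24 h (3.45), low pH roots at 24 h (3.44), salt roots at 2 h (2.52) and salt roots at 24 h (3.85). In the exact permutation test of SlIDD4 alone, against ubiquitin of the same row, calls were lost for control roots minus control shoots at 2 h (1.84), control roots minus control shoots at 24 h (3.75), flood shoots at 2 h (2.43), flood shoots at 24 h (3.82), low pH shoots at 24 h (3.11) and salt shoots at 24 h (3.22). Of these tests, all but that of the controls at 2 h had too few wells to reach the threshold. With ubiquitin of the same plate and row, calls were gained for low pH shoots at 2 h (1.27), flood shoots 24 h minus 2 h (1.39) and low pH shoots 24 h minus 2 h (1.84). Without moderation of the spread, calls were lost for salt shoots 24 h minus 2 h (2.77). With every well of the plate read as 2 h, calls were gained for low pH shoots at 2 h (1.86).

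When each replicate row of wells was left out in turn, values ranged from 1.47 to 2.16 for control roots minus control shoots at 2 h, -0.13 to 0.32 for flood roots at 24 h, -0.11 to 0.32 for low pH roots at 24 h, -0.46 to 0.78 for salt shoots at 2 h, -2.26 to -1.50 for flood, roots minus shoots, at 2 h, -2.27 to -1.20 for low pH, roots minus shoots, at 2 h, 1.26 to 2.03 for low pH shoots, 24 h minus 2 h, -0.53 to 0.086 for salt roots, 24 h minus 2 h and 1.96 to 3.35 for salt shoots, 24 h minus 2 h. Other results kept their direction and call. Where a row removed left 1 ubiquitin well, that well was assumed to vary like the others.

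With the well row as a replicate block, SlIDD4 in flood roots at 24 h had -0.086 in place of 0.06 and no other result changed direction or call, of 26 that could be fitted (not flood shoots at 24 h and control shoots 24 h minus 2 h). Nothing ties a row of one plate to that of another, and deviations of same-numbered rows correlated between -0.18 and 0.28 over the 12 stress comparisons. The rows were not taken as pairs.

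Counts of targets called moved as well. With ubiquitin over both plates they were 5 in place of 9 in flood roots at 24 h, 6 and 4 in place of 14 and 14 in low pH roots at 2 h and 24 h, and 7 in place of 13 in salt roots at 24 h. With the mean of the other targets they were 15 in place of 9 in flood roots and 18 in place of 8 in salt roots at 2 h, 8 and 13 in place of 14 and 21 in flood shoots at 2 h and 24 h, and 12 and 13 in place of 19 and 20 in low pH and salt shoots at 24 h. With no reference gene they were 17 and 21 in place of 9 and 9 in flood roots, 15 and 20 in place of 8 and 13 in salt roots, and 9 in place of 14 in low pH roots at 2 h. The correlation of SlIDD14 with SlIDD4 was 0.10 with the Ct alone, in place of -0.31.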
